A study of Mus musculus with 16 samples.

Results

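The genes that make cholesterol and the genes that sense and move it were followed in the mouse jejunum after gamma irradiation on each of the methionine diets. The set was a list of 30 gene symbols, chosen by name and role, with earlier results of these data known. By Ensembl gene ID 29 of the 30 were found among the 37620 genes in the files. Hmgcs1, the cytosolic HMG-CoA synthase, was not matched and has no value here. All 29 passed the filter on low counts, which left 16558 genes for testing.

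The tissue was the proximal jejunum of CBA/J mice, an inbred strain, all males aged 8 weeks, with 16 libraries in 4 groups of 4. All groups received a diet with methionine, either adequate or supplemented (300% per the design text), and either 0 or 8.5 Gy of gamma rays. The groups are therefore adequate 0 Gy, adequate 8.5 Gy, supplemented 0 Gy and supplemented 8.5 Gy. The design text also names 6 days, which can be read as time on the diet or as time since exposure. No animal identifier and no batch is given in the labels, so the p-values measure the spread between libraries, which may in part be technical. The RNA came from whole tissue, where fewer cells of a type and less RNA per cell cannot be told apart.

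Animal cells build cholesterol from acetyl-CoA through mevalonate, isoprenoid phosphates, squalene and lanosterol. The transcription factor SREBP2, encoded by Srebf2, turns on the genes of this route when membranes of the endoplasmic reticulum are low in sterol: the escort protein SCAP then carries it to the Golgi for cleavage, and INSIG proteins hold it back when sterol is plentiful. Oxysterols in turn activate the LXR receptors, which drive genes that export sterol, and in the small intestine absorptive cells take up dietary and biliary cholesterol through NPC1L1 and return plant sterols to the lumen through ABCG5 and ABCG8.

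Library depth ran from 2.57 to 15.51 M counts (M, mega), and 3 libraries held fewer than 4 M: replicate 1 of adequate 0 Gy, replicate 2 of adequate 8.5 Gy and replicate 1 of supplemented 8.5 Gy. The smallest count behind any member's value was 12, for the decarboxylase gene Mvd in replicate 2 of adequate 8.5 Gy. Small nucleolar RNAs took 2.93 to 5.05% of counts in the unirradiated and 7.18 to 14.12% in the irradiated libraries. The tissue label was checked against markers. All 20 markers of absorptive enterocytes were detected in every library, the lowest value being 27.4 CPM for Cdx1 (CPM, a gene's count relative to the TMM-scaled library total). Of the ileal genes, Fgf15 had 0 counts in all 16 libraries and Fabp6 at most 1 count, while Clec2h, on the same list, was at 231 to 765 CPM. Of the liver genes, Alb reached at most 19.6 CPM, and Cps1, which the small intestine also expresses, was at 846 to 2009 CPM.

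The members spanned a wide range of levels. Per kilobase of effective length, the highest in adequate 0 Gy were Srebf1 at 148, Npc1l1 at 135, Abcg5 at 124 and Insig1 at 121 CPM per kb (means of 4 libraries). The enzymes of the route lay lower, with Fdps at 44.3 and Mvd at 4.99 CPM per kb. Abca1 was the lowest of the 29 in this group at 3.78 CPM per kb, and stood at 13.0 and 13.3 CPM per kb in the irradiated groups of the adequate and supplemented diets. All levels below are in CPM and compare a gene with itself.

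The sequences before the start sites show what the genes of this route share in their letters. SREBPs bind DNA together with NF-Y, which recognises the CCAAT box, so promoter windows of 300 bases (250 before and 50 after the start site) were taken from RefSeq on GRCm38.p6 and searched on both strands. Of the 30 listed genes, 26 had at least 1 window used here, 36 windows in all. The windows printed are those of 5 genes with lower levels after irradiation and of Abca1, which went the other way. Capitals mark each CCAAT, written ATTGG where it lies on the other strand, and sequences run 5′ to 3′ along the gene.
Insig1: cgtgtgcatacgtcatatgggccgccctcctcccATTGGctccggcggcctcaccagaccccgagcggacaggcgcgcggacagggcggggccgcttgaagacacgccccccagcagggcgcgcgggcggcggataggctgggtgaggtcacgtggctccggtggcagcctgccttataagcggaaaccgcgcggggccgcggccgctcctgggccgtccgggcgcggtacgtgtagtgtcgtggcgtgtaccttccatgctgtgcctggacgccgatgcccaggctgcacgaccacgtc
Srebf2: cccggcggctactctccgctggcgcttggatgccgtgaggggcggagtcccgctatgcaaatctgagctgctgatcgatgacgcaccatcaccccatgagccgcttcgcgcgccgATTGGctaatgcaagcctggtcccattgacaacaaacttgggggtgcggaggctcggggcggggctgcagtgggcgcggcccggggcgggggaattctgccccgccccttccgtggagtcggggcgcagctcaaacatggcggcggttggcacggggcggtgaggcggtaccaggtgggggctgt
Mvk: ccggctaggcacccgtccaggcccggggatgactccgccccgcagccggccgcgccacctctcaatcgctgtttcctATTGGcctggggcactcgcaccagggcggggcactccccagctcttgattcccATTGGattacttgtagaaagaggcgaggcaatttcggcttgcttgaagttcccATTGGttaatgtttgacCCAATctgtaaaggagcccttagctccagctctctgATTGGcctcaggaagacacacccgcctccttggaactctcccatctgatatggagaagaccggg
Cyp51: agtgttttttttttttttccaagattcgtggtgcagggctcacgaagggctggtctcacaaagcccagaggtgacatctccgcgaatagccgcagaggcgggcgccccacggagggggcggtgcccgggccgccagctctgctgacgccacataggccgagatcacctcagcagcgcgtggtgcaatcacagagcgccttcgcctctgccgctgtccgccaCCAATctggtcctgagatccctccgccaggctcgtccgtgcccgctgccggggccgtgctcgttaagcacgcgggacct
Tm7sf2: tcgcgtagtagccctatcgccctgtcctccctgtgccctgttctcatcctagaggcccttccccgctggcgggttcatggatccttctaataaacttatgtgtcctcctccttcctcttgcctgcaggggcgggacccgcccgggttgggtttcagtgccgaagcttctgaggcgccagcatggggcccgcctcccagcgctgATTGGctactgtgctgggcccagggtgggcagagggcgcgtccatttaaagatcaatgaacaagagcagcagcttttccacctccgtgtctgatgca
Abca1: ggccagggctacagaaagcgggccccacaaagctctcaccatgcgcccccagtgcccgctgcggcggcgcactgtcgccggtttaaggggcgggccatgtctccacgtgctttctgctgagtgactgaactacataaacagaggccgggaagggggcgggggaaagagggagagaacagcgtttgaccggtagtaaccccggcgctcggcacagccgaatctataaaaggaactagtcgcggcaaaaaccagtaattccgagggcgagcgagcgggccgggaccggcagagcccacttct
On GRCm38.p6 these windows are chr5:28071162-28071461 (Insig1, plus strand), chr15:82147019-82147318 (Srebf2, plus), chr5:114444019-114444318 (Mvk, plus), chr5:4104648-4104947 (Cyp51, minus), chr19:6067801-6068100 (Tm7sf2, minus) and chr4:53159846-53160145 (Abca1, minus). The counts themselves were made on the earlier build NCBIM37, per the submitters' processing notes.

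The Mvk window held 5 CCAAT boxes, the other 4 windows with capitals held 1 each, and the Abca1 window held none. Over the set, 23 of 36 member windows (63.9%) had a CCAAT box, against 37.4% of all 32851 windows in the table. Some member windows overlap, such as those of Scap and of Nr1h3, and the Abcg5 window shares its CCAAT with a window of Abcg8. A GC box (GGGCGG, bound by Sp1) was in 24 of 36 (66.7%), against 35.7% of all windows. By gene, 10 of the 11 members that were lower after irradiation averaged over diets and had a window carried CCAAT, as did 12 of the 15 other members with a window. A gene with several windows, such as Pmvk or Dhcr7, was counted if any of its windows carried CCAAT. The share by gene over all genes was not computed. Acat2, lower on both diets, had no CCAAT in its window. The 15 other members include Abca1 and Ggps1, which were higher, and Hmgcs1, which has no level here. Of these, Ggps1 and Hmgcs1 carried CCAAT and Abca1 did not. Stricter motifs were rare: the sterol regulatory element TCACNCCAC was found only in a Hmgcs1 window (1.24% of all windows), the SREBP E-box TCACNTGA only in an Insig2 window (4.18%), and the DR4 element of LXR in no member window (0.0152%). Matches of different motifs may overlap at their ends. A match is a description of letters and not a bound site, and no match says only that these letters are not in this window.

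Radiation on the adequate diet was compared first. After 8.5 Gy, 9 of the 29 members fell, 7 of the 18 synthesis enzymes with a value and 2 of the 5 sensors, and 1, Abca1, rose (edgeR's quasi-likelihood test, Benjamini-Hochberg adjusted p under 0.05 over all genes tested). Over all genes 13.7% were called, 6.58% lower and 7.13% higher. The median log2 fold change of the 29 was -0.31 against 0.01 over all genes, and 24 of 29 values were below 0 against 49.5% of all genes. In 7 members, all lower, the 4 irradiated and 4 unirradiated libraries did not overlap, which was so for 10.1% of all genes in the lower and 9.34% in the higher direction. On the supplemented diet 8 members fell and 1 rose, where 15.2% of all genes were called (7.21% lower, 8.03% higher). The median was -0.37 against 0.01 over all genes, 25 of 29 values were below 0 against 49.3%, and 11 members did not overlap, 10 of them lower, against 9.25% of all genes lower and 9.43% higher. Without replicate 4 of supplemented 0 Gy, or without replicate 2 of supplemented 8.5 Gy, 5 members were called on that diet in place of 9, with 9.41% and 8.5% of all genes called. The 8 members that fell on the supplemented diet also fell on the adequate diet, and Mvk was called by edgeR on the adequate diet alone, but by DESeq2 and limma voom, and by edgeR on protein-coding genes only, on the supplemented diet as well. Those comparisons use separate libraries. Across the 29 genes their log2 fold changes had a Pearson r of 0.93, against 0.69 across all genes tested. Genes are not independent replicates. Insig1 and Abca1, the lowest and highest members on both diets, weigh heavily in the members' r, which was not computed without them.

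**Figure D1:**
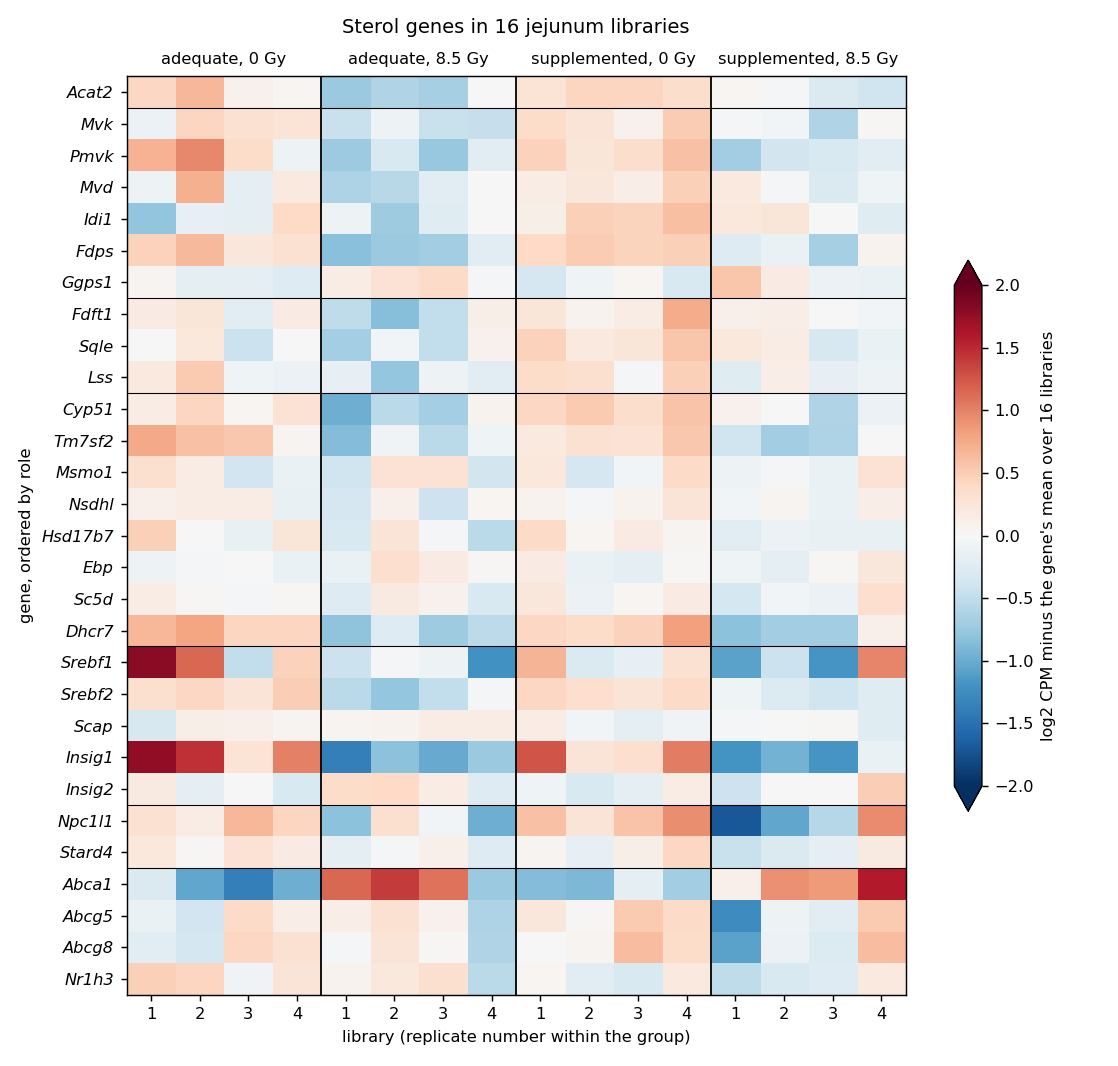
Level of each of the 29 members in each of the 16 libraries, as log2 CPM minus the gene's mean over all libraries, with genes in rows ordered by role and libraries in columns by group. Insig1 and the enzymes called lower are mostly red (above the gene's mean) at 0 Gy and blue (below it) at 8.5 Gy on each diet, and Abca1 shows the opposite.

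Among the early enzymes, Acat2, Pmvk and Fdps fell on both diets. Acat2 makes acetoacetyl-CoA, the first intermediate of the route. Its level was 35.3, 42.4, 28.2 and 27.4 CPM in replicates 1 to 4 of adequate 0 Gy and 15.7, 17.4, 16.6 and 26.8 CPM in adequate 8.5 Gy. The groups did not overlap, though replicate 4 of the irradiated group came within 1 CPM of the lowest unirradiated library. The log2 fold change was -0.78 ± 0.18 (SE; adjusted p = 0.008, n = 4 per group). On the supplemented diet Acat2 went from 34.4 ± 1.70 to 23.7 ± 3.39 CPM (mean ± SD, n = 4), a log2 fold change of -0.55 ± 0.17 (adjusted p = 0.0397). This call was lost without any single unirradiated library and without replicate 2, 3 or 4 at 8.5 Gy (adjusted p 0.0639 to 0.111).

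Fdps, the farnesyl pyrophosphate synthase at the branch between sterols and other isoprenoids, was lower in every irradiated library than in any unirradiated one. Its values on the adequate diet were 54.1, 61.6, 46 and 48.4 CPM without and 21.7, 23.2, 24.1 and 33.6 CPM with irradiation. That is 2.03-fold lower (log2 -1.02 ± 0.16, adjusted p = 0.000733). On the supplemented diet the unirradiated libraries lay close together, at 51.8, 56.0, 53.1 and 54.6 CPM, and the irradiated ones at 32.9, 35.6, 24.7 and 41.1 CPM. Again the groups did not overlap, with a log2 fold change of -0.68 ± 0.16 (adjusted p = 0.00736).

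Before that branch, mevalonate is phosphorylated by Mvk and Pmvk, decarboxylated by Mvd and isomerised by Idi1. Pmvk fell on both diets, from 9.87 ± 3.04 to 4.76 ± 0.947 CPM on the adequate diet (log2 -1.06 ± 0.22, adjusted p = 0.00514) and from 9.10 ± 0.966 to 5.13 ± 0.733 CPM on the supplemented diet (-0.80 ± 0.21, adjusted p = 0.0171). The latter call was lost without replicate 4 of supplemented 0 Gy (adjusted p = 0.0545) or replicate 2 of supplemented 8.5 Gy (0.0521). Mvk fell on the adequate diet, from 14.7 ± 2.25 to 9.70 ± 1.28 CPM (-0.65 ± 0.16, adjusted p = 0.0143), although replicate 1 of adequate 0 Gy, at 11.5 CPM, lay just under the highest irradiated library at 11.6 CPM. Without replicate 2 of adequate 0 Gy or replicate 1 of adequate 8.5 Gy, its adjusted p was 0.0508 and 0.0515. On the supplemented diet the Mvk groups did not overlap, at 13.2 to 17.7 against 8.13 to 12.7 CPM, while its adjusted p of 0.0504 (-0.47 ± 0.16) missed the threshold. The diets are therefore not shown to differ in Mvk, whose interaction was 0.18 ± 0.23 (adjusted p = 1).
Mvd and Idi1 were not called on either diet (Mvd -0.54 ± 0.21 and -0.34 ± 0.20; Idi1 -0.12 ± 0.20 and -0.37 ± 0.19, adequate and supplemented in turn). Ggps1, which extends farnesyl to geranylgeranyl pyrophosphate for protein prenylation, was the only enzyme of this segment with positive fold changes, 0.36 ± 0.16 and 0.29 ± 0.16, neither called.

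The middle of the route was not called on either diet. Fdft1 joins farnesyl units into squalene, Sqle oxidises squalene in a rate-limiting step, and Lss closes the rings of lanosterol. Their log2 fold changes lay between -0.44 and -0.22 on the adequate and between -0.39 and -0.28 on the supplemented diet, and the smallest adjusted p was 0.101, for Lss. Sqle, for example, read 32.2, 37.3, 23.8 and 32.1 CPM without and 20.2, 31.1, 23.0 and 34.4 CPM with irradiation on the adequate diet, so the groups overlapped broadly.

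The late steps split. Of 8 genes from lanosterol to cholesterol, Cyp51, Tm7sf2 and Dhcr7 fell on both diets and the other 5 were not called on either. Dhcr7, the last reductase, which turns 7-dehydrocholesterol into cholesterol, was lower in every irradiated library than in any unirradiated one. It read 47.9, 52.5, 40.6 and 40.8 CPM in adequate 0 Gy and 17.2, 25.3, 18.3 and 21.0 CPM in adequate 8.5 Gy (log2 -1.18 ± 0.19, adjusted p = 0.000871). The supplemented groups read 40.5, 38.9, 41.7 and 53.3 CPM without and 17.0, 18.6, 18.5 and 32.4 CPM with irradiation (-1.0 ± 0.18, adjusted p = 0.0019). Replicate 4 of supplemented 8.5 Gy stood apart from the other 3 of its group but stayed under every unirradiated library.

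Cyp51, the demethylase that acts on lanosterol, went from 44.8 ± 5.37 to 27.2 ± 8.87 CPM on the adequate diet (-0.71 ± 0.19, adjusted p = 0.0200) and from 52.7 ± 3.46 to 34.6 ± 6.83 CPM on the supplemented diet (-0.62 ± 0.19, adjusted p = 0.0339). In adequate 8.5 Gy, replicate 4 read 39.8 CPM and overlapped the unirradiated range of 39.1 to 51.5 CPM. Tm7sf2, a sterol reductase acting after Cyp51, had 8.18 to 13.4 against 4.22 to 7.47 CPM on the adequate diet (-0.89 ± 0.21, adjusted p = 0.0118) and 8.99 to 11.4 against 4.77 to 7.85 CPM on the supplemented diet (-0.77 ± 0.21, adjusted p = 0.0197), with no overlap on either. Tm7sf2 is among the less abundant members and rests on fewer counts. The Cyp51 call was lost without replicate 2 of adequate 0 Gy or replicate 1 or 3 of adequate 8.5 Gy (adjusted p 0.0583 to 0.0741), and on the supplemented diet without replicate 1, 2 or 4 at 0 Gy or 2 or 3 at 8.5 Gy (0.0542 to 0.118). That of Tm7sf2 was lost without replicate 1 of adequate 8.5 Gy (0.0528), replicate 4 of supplemented 0 Gy (0.0647) or replicate 2 or 3 of supplemented 8.5 Gy (0.0799 and 0.0735). The other late genes are Msmo1, Nsdhl and Hsd17b7 of the demethylation complex, the isomerase Ebp and the desaturase Sc5d. Their log2 fold changes ran from -0.31 to 0.16 on the adequate and from -0.33 to 0.04 on the supplemented diet. Msmo1 was the closest to no difference, at 45.7 ± 9.55 and 44.9 ± 11.8 CPM on the adequate diet (-0.02 ± 0.20). Hsd17b7 did not overlap on the supplemented diet, at 19.6 to 24.9 against 16.4 to 17.6 CPM, but its adjusted p was 0.172.

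**Figure D2:**
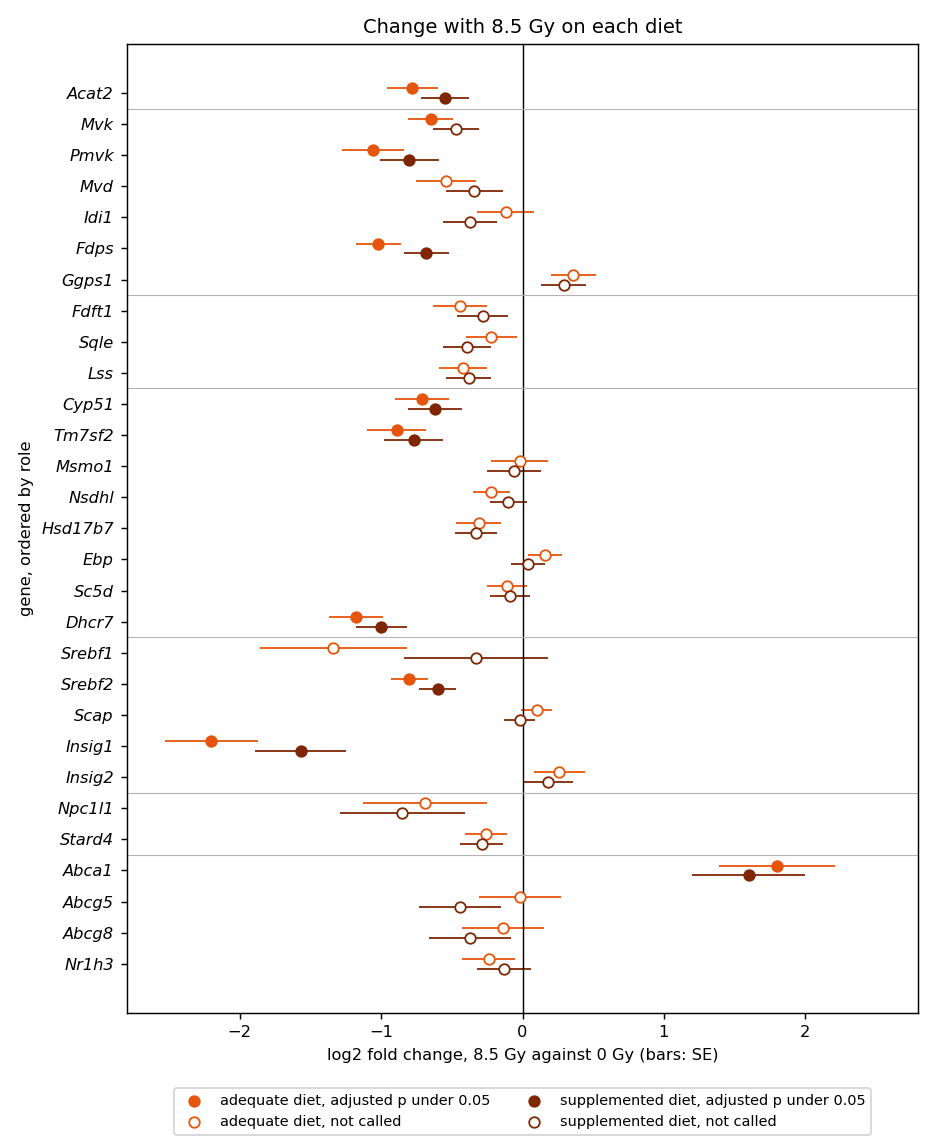
Log2 fold change of 8.5 against 0 Gy for each member on the adequate (orange) and supplemented (brown) diet, with bars of 1 standard error; filled points have an adjusted p under 0.05 and horizontal lines separate the roles. Insig1 lies farthest to the left at -2.20 and -1.57, Abca1 farthest to the right at 1.80 and 1.60, and most synthesis enzymes lie between -1.2 and 0.

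Among the sensors, Insig1 and Srebf2 fell on both diets and Scap, Insig2 and Srebf1 were not called on either. Insig1, the INSIG protein whose own gene is an SREBP target, had the largest change of the 29 on the adequate diet; on the supplemented diet that of Abca1 was slightly larger. It read 456, 370, 161 and 268 CPM in adequate 0 Gy against 51.7, 75.5, 66.5 and 79.8 CPM in adequate 8.5 Gy. The unirradiated libraries varied widely, yet the lowest of them stayed well above the highest irradiated one. The difference was 4.59-fold (log2 -2.20 ± 0.33, adjusted p = 0.000654). In the supplemented groups Insig1 read 318, 160, 169 and 271 CPM without and 58.1, 69.7, 59.1 and 122 CPM with irradiation, 2.97-fold lower (-1.57 ± 0.32, adjusted p = 0.00449). Insig2, its less sterol-responsive relative, was at 23.9 ± 3.63 and 28.6 ± 5.60 CPM on the adequate and 23.3 ± 3.27 and 26.1 ± 6.91 CPM on the supplemented diet, so the pair differed in direction on both (0.26 ± 0.18 and 0.18 ± 0.18 for Insig2, not called).

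Srebf2 was the most even of the members that changed. Unirradiated libraries had 107, 114, 102 and 120 CPM on the adequate and 114, 109, 102 and 111 CPM on the supplemented diet. With irradiation they had 59.1, 50.2, 60.5 and 82.9 CPM and 80.7, 70.4, 64.7 and 72.4 CPM. All 8 irradiated libraries were below all 8 unirradiated ones. The log2 fold changes were -0.80 ± 0.13 (adjusted p = 0.000972) and -0.60 ± 0.13 (adjusted p = 0.00588). Scap, the escort protein, was at 43.1 ± 5.77 and 46.4 ± 1.59 CPM on the adequate and 42.1 ± 4.21 and 41.4 ± 3.38 CPM on the supplemented diet (0.10 ± 0.11 and -0.02 ± 0.11, not called).

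Srebf1 encodes SREBP1, which mainly drives fatty acid synthesis, and its libraries scattered the most of the sensors. It read 664, 420, 134 and 262 CPM in adequate 0 Gy, 140, 187, 177 and 81.5 CPM in adequate 8.5 Gy, 303, 155, 170 and 233 CPM in supplemented 0 Gy and 90.1, 140, 83.2 and 372 CPM in supplemented 8.5 Gy. The log2 fold changes of -1.34 ± 0.52 (adjusted p = 0.104) and -0.33 ± 0.51 (adjusted p = 0.723) were not called. In each unirradiated group the 4 libraries had the same order for Srebf1 as for Insig1, highest in replicate 1 in both groups. Within the irradiated groups the orders differed.

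**Figure D3:**
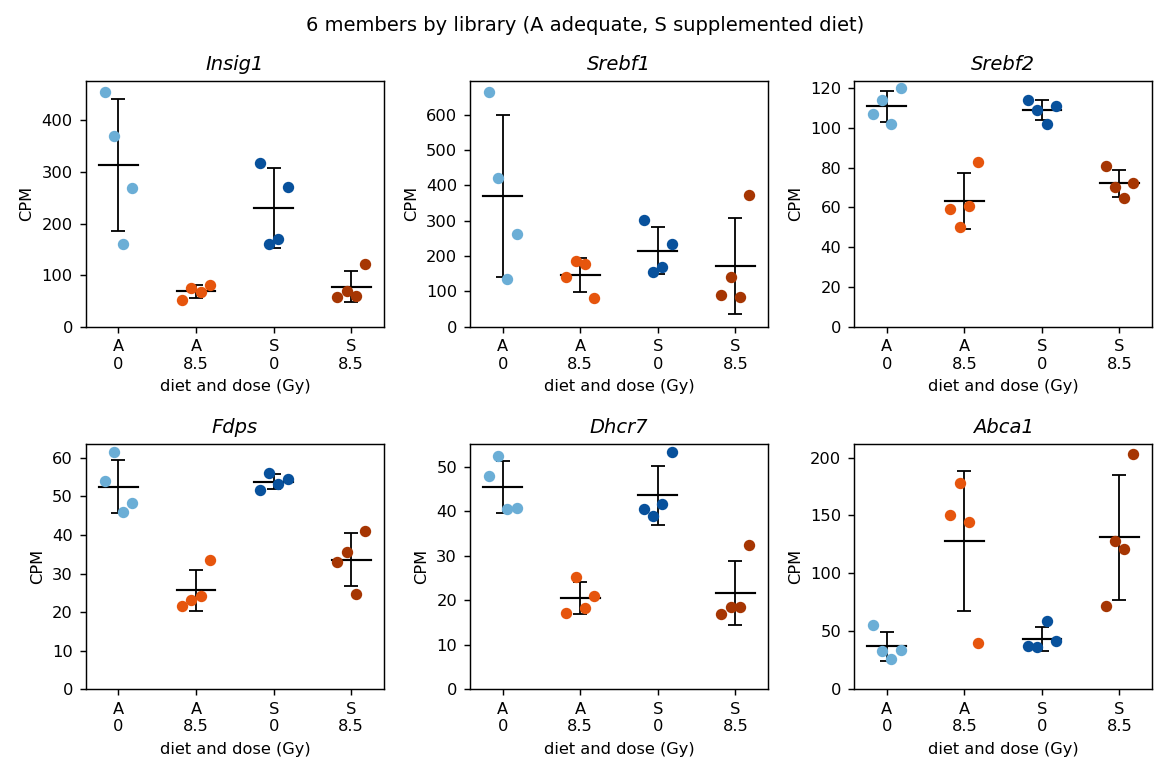
Level in CPM of 6 members in each library (points) with the group mean and SD (line and bar), for adequate 0 Gy, adequate 8.5 Gy, supplemented 0 Gy and supplemented 8.5 Gy in turn; the vertical axis differs between panels. The irradiated points of Insig1, Srebf2, Fdps and Dhcr7 lie below all unirradiated ones of their diet, and those of Abca1 lie above them except for 1 library of adequate 8.5 Gy at 40.2 CPM.

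On the export side, Abca1 rose on both diets. ABCA1 is an LXR target that loads cellular cholesterol onto apolipoprotein A-I, in macrophages as well as at the base of enterocytes. It read 55.2, 32.9, 26.2 and 34.2 CPM in adequate 0 Gy and 150, 178, 144 and 40.2 CPM in adequate 8.5 Gy. Replicate 4 of the irradiated group thus lay inside the unirradiated range while the other 3 lay far above it. The fold was 3.49 (log2 1.80 ± 0.41, adjusted p = 0.00993) with that library and 2.11 on the log2 scale (adjusted p = 0.000541) without it. On the supplemented diet the values of 37.0, 36.3, 58.7 and 41.6 CPM and of 72.2, 128, 121 and 203 CPM did not overlap (3.03-fold, log2 1.60 ± 0.40, adjusted p = 0.0150).
Macrophage markers were higher after irradiation too. On the adequate diet 3 of 10 were called higher and on the supplemented diet 4 of 10 (7.13% and 8.03% of all genes). Their summed level was 205 to 273 and 278 to 414 CPM on the adequate diet, and 224 to 333 and 374 to 500 CPM on the supplemented diet, without and with irradiation. All 10 were above 0 in every library. The irradiated library with 40.2 CPM of Abca1 had the highest macrophage sum of its group, 414 CPM. In supplemented 8.5 Gy the sum was 500 CPM in replicate 1, where Abca1 was lowest at 72.2 CPM. It was 374 CPM in replicate 4, where Abca1 was highest at 203 CPM. The part of macrophages in the rise of Abca1 was not tested.

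The other LXR-side members were not called. Nr1h3, which encodes LXR alpha, had log2 fold changes of -0.24 ± 0.19 and -0.13 ± 0.19. Abcg5 and Abcg8, which pair to form the sterol exporter on the luminal surface, were at 244 ± 56.2 and 241 ± 60.3 CPM (Abcg5) and 285 ± 72.0 and 260 ± 60.3 CPM (Abcg8) on the adequate diet, and at 294 ± 43.3 and 217 ± 99.2 CPM and 329 ± 67.2 and 254 ± 118 CPM on the supplemented diet. They moved together from library to library: in supplemented 8.5 Gy, Abcg5 ran from 99.8 to 342 CPM and Abcg8 from 129 to 414 CPM, lowest in replicate 1 and highest in replicate 4 for both.

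Uptake through Npc1l1 showed the same spread. The gene read 557, 496, 713 and 607 CPM without and 255, 560, 435 and 228 CPM with irradiation on the adequate diet, and 674, 540, 669 and 857 CPM and 139, 218, 302 and 862 CPM on the supplemented diet. In both diets most irradiated libraries were below the unirradiated ones, but replicate 4 of supplemented 8.5 Gy was the highest of all 16, and neither -0.69 ± 0.44 (adjusted p = 0.320) nor -0.85 ± 0.44 (adjusted p = 0.211) was called. Stard4, a carrier of sterol between membranes, had -0.26 ± 0.15 and -0.29 ± 0.15, not called.

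In the irradiated groups, libraries at the extremes of absorptive enterocyte markers were also extreme for these transporters. In adequate 0 Gy, Npc1l1 was highest in replicate 3, while the markers were highest in replicate 1. Mean log2 CPM of the 20 markers, centred on the mean of all libraries, was -0.98 in replicate 1 and 0.73 in replicate 4 of supplemented 8.5 Gy, and -0.82 in replicate 4 of adequate 8.5 Gy. Npc1l1, Abcg5, Abcg8, Nr1h3 and Abca1 were each at their group's lowest in the libraries at -0.98 and -0.82. Each was at its group's highest in the library at 0.73. Abca1 read 72.2, 40.2 and 203 CPM in those libraries in turn. The remaining 13 libraries lay between -0.17 and 0.54. Radiation changed 7.13% of all genes upward and 6.58% downward in the adequate groups, and 8.03% and 7.21% in the supplemented groups. Of the 20 markers, the adequate comparison called 3 higher and 2 lower, and the supplemented comparison 1 higher and 2 lower. The supplemented counts do not set these markers apart. Their summed level was 45062 to 56563 and 22514 to 59713 CPM on the adequate diet and 40678 to 53229 and 18171 to 77140 CPM on the supplemented diet, without and with irradiation. Other lists differed with dose in larger shares than all genes did. Paneth cell markers (9 of 9 tested on both diets) and goblet cell markers (4 and 5 of 10) were higher. So were crypt base stem cell markers (5 of 12 on both) and fibroblast and matrix markers (2 and 3 of 10). B and plasma cell markers (6 and 4 of 6 tested) and red blood cell markers (5 of 5 on both, medians -7.20 and -4.68) were lower. Of 14 markers of cycling cells, 0 were called on either diet. The part of these cell types in the members' changes was not tested.
Over the 18 synthesis enzymes with a value, the centred mean was 0.01 to 0.41 in the 8 unirradiated and -0.48 to -0.03 in the 8 irradiated libraries. The libraries at the extremes of the enterocyte markers had synthesis means of -0.10, -0.03 and -0.15, the latter for adequate 8.5 Gy. Without those 3 libraries, a setting added after the data were seen, 13 members were called on the adequate diet and 11 on the supplemented diet. Over all genes 19.3% and 18.1% were called in that setting. The means of -0.15 and -0.03 were the highest of their irradiated groups, so the setting left out libraries with small falls. Its counts do not test the part of enterocytes.

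**Figure D4:**
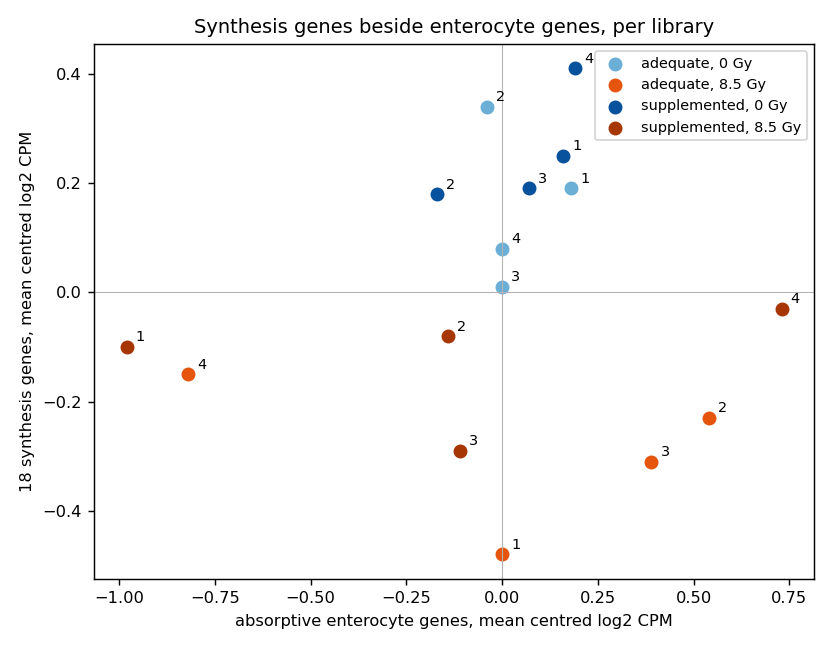
Mean centred log2 CPM of the synthesis enzymes (vertical axis) against that of the 20 enterocyte markers (horizontal axis), 1 point per library, coloured by group. Irradiated libraries lie below 0 on the vertical axis at low, middle and high enterocyte values, from -0.98 to 0.73, and unirradiated libraries lie above 0.

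Averaging the response over both diets called 13 of the 29 lower and 2 higher, against 31% of all genes called (15.3% lower and 15.7% higher). The members added to those above were Mvd (-0.44 ± 0.14, adjusted p = 0.0291), Lss (-0.40 ± 0.12, 0.0153), Fdft1 (-0.36 ± 0.13, 0.0417), Hsd17b7 (-0.32 ± 0.11, 0.0393) and Ggps1 (0.32 ± 0.11, 0.0382). The calls of Fdft1, Hsd17b7 and Ggps1 were lost in 14, 11 and 12 of 23 other settings. The prenylation enzyme Ggps1 was thus higher where the farnesyl synthase Fdps before it was lower (-0.85 ± 0.11). Still not called by edgeR were Idi1, Sqle, Msmo1, Nsdhl, Ebp, Sc5d, Srebf1, Scap, Insig2, Npc1l1, Stard4, Abcg5, Abcg8 and Nr1h3, of which DESeq2 and limma voom each called Npc1l1 and Stard4 lower.

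Genes around this set were counted from lists picked with results of these data known. Over all genes, 6.58% were called lower on the adequate and 7.21% on the supplemented diet, with a median of 0.01 on each. Among 8 other genes of the cholesterol pathway, 2 fell on the adequate and 3 on the supplemented diet and none rose (medians -0.35 and -0.37). One of them is Rdh11, a retinol dehydrogenase and known SREBP target, at 40.4 ± 3.66 and 25.6 ± 4.90 CPM on the adequate diet (-0.65 ± 0.13, adjusted p = 0.00315) and 37.6 ± 2.46 and 28.1 ± 2.50 CPM on the supplemented diet (-0.43 ± 0.12, adjusted p = 0.0262). Of 7 genes for SREBP cleavage and INSIG degradation, 0 were called on the adequate diet and 1 on the supplemented diet, the ubiquitin ligase Syvn1 (-0.66 ± 0.15, adjusted p = 0.00627). Neither count is above the share of all genes called, 13.7% on the adequate and 15.2% on the supplemented diet.

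Fatty acid synthesis is driven mostly by SREBP1. On the adequate diet 2 of 13 genes fell and none rose, and on the supplemented diet 1 rose and none fell (medians -0.40 and 0.14). Over all genes 13.7% and 15.2% were called on those diets, so these counts do not set the list apart. Acaca, acetyl-CoA carboxylase, and Fasn, fatty acid synthase, fell on the adequate diet (-0.80 ± 0.26, adjusted p = 0.0475, and -0.94 ± 0.30, adjusted p = 0.0474). Fasn was at 245 ± 142 CPM there without irradiation, a wide spread, and on the supplemented diet it had -0.21 ± 0.30 (adjusted p = 0.681). Me1, the malic enzyme that supplies NADPH, rose on the supplemented diet, from 33.2 ± 4.40 to 70.9 ± 8.54 CPM (1.10 ± 0.27, adjusted p = 0.0114). None of the 13 genes was called in the interaction, so the diets are not shown to differ here.

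In the isoprenoid branch outside sterols, 1 of 10 genes rose on the adequate diet, Pggt1b, a subunit of a geranylgeranyl transferase (0.43 ± 0.11, adjusted p = 0.0145), and 0 were called on the supplemented diet. Of 15 tested genes for sterol transport, storage and LXR, 2 rose on the adequate and 1 on the supplemented diet. Neither list was called more often than all genes, at 13.7% on the adequate and 15.2% on the supplemented diet. Mylip, a ubiquitin ligase gene and LXR target, rose on both, from 3.14 ± 1.19 to 10.4 ± 2.62 CPM (1.61 ± 0.32, adjusted p = 0.00428) and from 4.64 ± 1.64 to 9.36 ± 3.44 CPM (1.05 ± 0.30, adjusted p = 0.0274). Soat1, which esterifies cholesterol for storage, rose on the adequate diet (0.84 ± 0.19, adjusted p = 0.00828) and had 0.52 ± 0.19 on the supplemented diet (adjusted p = 0.0672). Abcg1, another LXR target, was not called (0.46 ± 0.24 and 0.34 ± 0.23).

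Diet was compared at each dose. Without irradiation, 0 of 29 members were called between supplemented and adequate diets by edgeR, by DESeq2 or by limma voom, against 0.199% of all genes by edgeR (0.169% higher and 0.0302% lower). The groups overlapped in all 29 members, while 4.71% of all genes were higher and 4.43% lower with no overlap. Idi1 and Sqle had an unadjusted p under 0.05 (2 of 29, against 11.9% of all genes). Idi1 read 11.9, 18.4, 17.9 and 27.1 CPM on the adequate and 22.4, 28.9, 28.1 and 31.3 CPM on the supplemented diet, a difference of 0.51 ± 0.19 on the log2 scale (adjusted p = 0.299) with overlapping groups. For Sqle it was 0.42 ± 0.18 (adjusted p = 0.352). The 29 values had a median of 0.04, and 18 were positive.

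At 8.5 Gy, 0 of 29 members and 0% of all genes were called between the diets by edgeR, and 0 members by DESeq2 and limma voom. Fdps and Fdft1 had an unadjusted p under 0.05 (2 of 29, against 5.26% of all genes), higher on the supplemented diet by 0.37 ± 0.16 (adjusted p = 0.927) and 0.40 ± 0.18 (adjusted p = 0.931). Scap was the only member whose groups did not overlap, at 44.9 to 47.9 CPM on the adequate and 36.4 to 43.5 CPM on the supplemented diet (-0.17 ± 0.11, adjusted p = 0.938), as were 1.7% of all genes in that direction and 1.44% in the other.

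**Figure D5:**
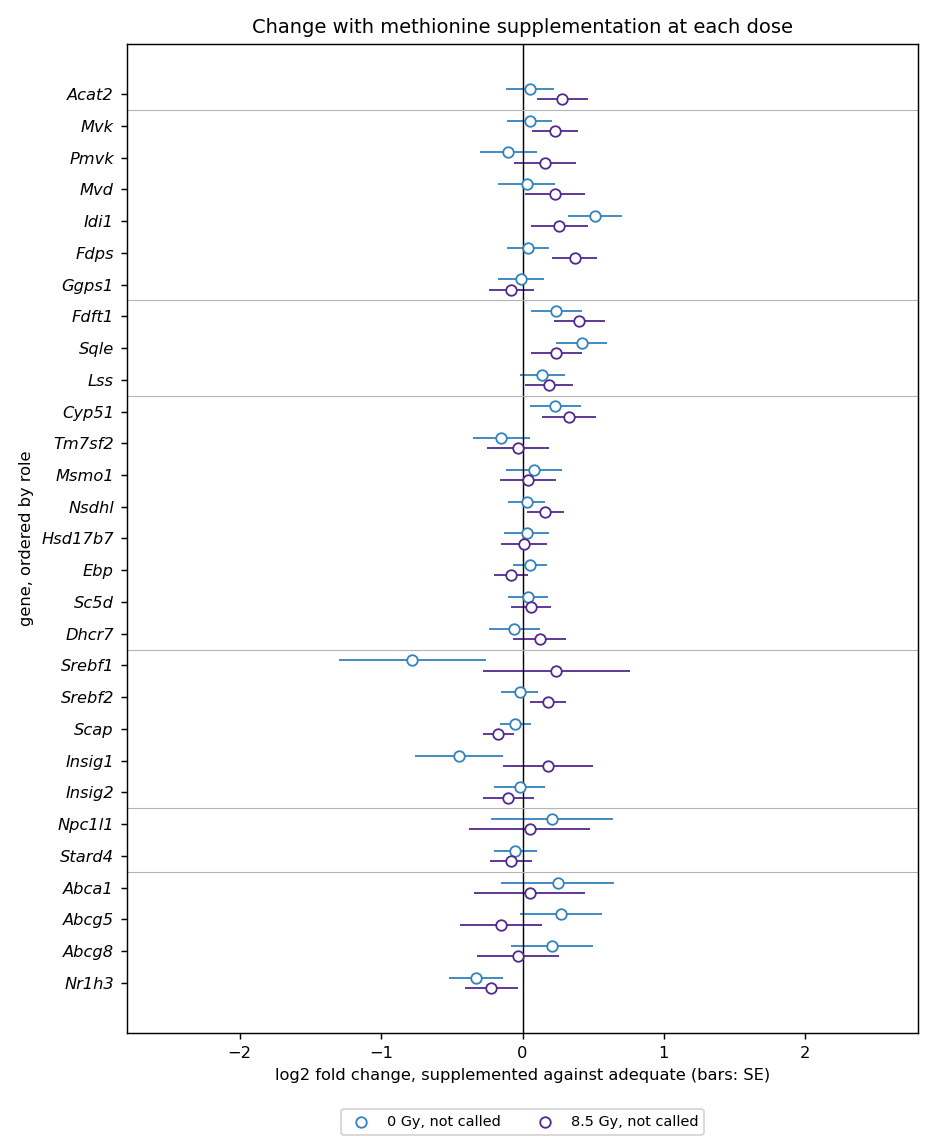
Log2 fold change of the supplemented against the adequate diet for each member at 0 Gy and at 8.5 Gy, with bars of 1 standard error and genes ordered by role. No point has an adjusted p under 0.05, and values run from -0.78 for Srebf1 at 0 Gy to 0.51 for Idi1 at 0 Gy.

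Whether the response to radiation differed between diets was tested by the interaction. None of the 29 members was called by edgeR, DESeq2 or limma voom, none had an unadjusted p under 0.05 in edgeR, and 0% of all genes were called (4.46% at an unadjusted p under 0.05). The estimates remain wide for some members. They were 0.63 ± 0.45 for Insig1, 1.01 ± 0.73 for Srebf1 and 0.34 ± 0.22 for Fdps, positive meaning a smaller fall on the supplemented diet, and -0.20 ± 0.56 for Abca1 (adjusted p = 1 for each). For Srebf2, the most even of them, the estimate was 0.20 ± 0.18. A value that misses the threshold does not show that the diets act alike.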

How the data were processed

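RNA from 16 jejunum libraries was sequenced after removal of ribosomal RNA, fragmentation and a small RNA library protocol, per the labels' protocols. The authors deposited RSEM expected counts per Ensembl gene, that is, estimated counts in which reads that fit several genes are shared, made with Bowtie2 2.2.9 and RSEM 1.3.0 on build NCBIM37, per the submitters' processing notes, which also name edgeR 3.2.4. The files also give an effective length per gene, per the file headers.

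Expected counts were rounded to whole numbers. Symbols and gene types came from GENCODE M21 (32897 of 37620 IDs matched, 4723 without a symbol stayed in the tests). Genes were kept by filterByExpr, libraries scaled by TMM (factors 0.846 to 1.111), and a mean per group fitted over all 16 libraries with edgeR 4.0.16 in R 4.3.3 (robust quasi-likelihood F test, two-sided, common biological coefficient of variation 0.219). P-values were adjusted by Benjamini-Hochberg over 16558 genes per comparison, and genes were called under 0.05. The SE of a log2 fold change was its absolute value divided by the square root of its F statistic. The comparisons were radiation on each diet and averaged over diets, the diets at either dose, and the interaction of diet with radiation. Alternatives were DESeq2 1.42.0, its size factors in edgeR, limma 3.58.1 voom, no filter, protein-coding genes only, only the groups compared, no libraries under 4 M (mega) counts, and each library left out in turn. The script was tested on simulated counts. Replicate numbers follow deposition order and pair nothing.

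The members and lists were chosen with earlier results of these data known. By rule, members called in a comparison are given with values, and the called genes of the pathway lists are named; some genes that rule names are not reported here. Abcg1 was named after its values were seen. Promoter windows came from RefSeq (GRCm38.p6), and windows on chromosome 18 were left out.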

Additional observations from a re-analysis of the deposited data

Results flagged for a closer look

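In 116 groups of 4 libraries (29 members in 4 groups), 6 had 1 library far from the other 3, and chance alone gives such a gap in about 1 in 20 groups. Abca1 in adequate 8.5 Gy was 40.2 CPM in replicate 4 against 144 to 178 CPM in the others. Dhcr7 in supplemented 8.5 Gy was 32.4 CPM in replicate 4 against 17.0 to 18.6 CPM. Mvk was 11.6 CPM in replicate 2 of adequate 8.5 Gy against 9 to 9.11 CPM, and 8.13 CPM in replicate 3 of supplemented 8.5 Gy against 12 to 12.7 CPM. Scap was 34.5 CPM in replicate 1 of adequate 0 Gy against 44.8 to 46.8 CPM, and 36.4 CPM in replicate 4 of supplemented 8.5 Gy against 42.3 to 43.5 CPM. Replicate 1 of adequate 0 Gy and replicate 2 of adequate 8.5 Gy are among the 3 libraries with fewer than 4 M counts.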

How the results depend on the processing

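Insig1, Srebf2, Fdps, Dhcr7 and Abca1 kept their calls on each diet in every setting run. For 34 calls of single members, 801 combinations of a call and a setting were run. Of these, 731 kept the call, 70 lost it and 0 reversed. With each library left out in turn, members called numbered 7 to 11 on the adequate diet, 5 to 11 on the supplemented diet and 11 to 17 averaged over diets, against 10, 9 and 15 with all libraries. The share of all genes called moved with them, from 7.31 to 16.5%, 8.5 to 21.5% and 25.5 to 34.9%. The 5 on the supplemented diet came without replicate 4 of supplemented 0 Gy or without replicate 2 of supplemented 8.5 Gy, each of which ended the calls of Acat2, Pmvk, Cyp51 and Tm7sf2. Without the libraries under 4 M counts, 9, 6 and 12 members were called (8.59%, 11.5% and 25.6% of all genes), and on the supplemented diet the calls of Acat2, Pmvk and Cyp51 were lost. On the adequate diet Mvk, Cyp51 and Tm7sf2 lost their calls in 2, 4 and 1 of 24 settings. Members were also gained: Mvk on the supplemented diet and Npc1l1 and Stard4 averaged over diets, each by DESeq2 and limma voom. In the comparisons of diet and in the interaction, 0 members were called in all settings. Depth limits the least abundant members most, such as Mvd and Pmvk. No paired analysis was possible because the labels carry no replicate numbers that pair libraries.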
